A study of Mus musculus with 6 samples.

Results

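The enzymes and helpers that turn procollagen into collagen were measured on arrays of whole lung RNA from 6 mice. The set comprises 10 genes: the prolyl 4-hydroxylase subunits P4ha1, P4ha2 and P4ha3, the lysyl hydroxylases Plod1, Plod2 and Plod3, the chaperone gene Serpinh1, and the propeptide processing genes Pcolce, Adamts2 and Bmp1. All probe sets were taken whose platform annotation names exactly 1 gene symbol that is in the set, which gave 13 of 45037 probe sets, for 8 of the 10 genes. P4ha1 and Adamts2 had no such probe set and were not analysed here. Plod1 has 2 probe sets, Plod2 has 2, Serpinh1 has 2, Bmp1 has 3 and each other gene has 1. A further 3 probe sets annotated to Plod1 together with another gene were left out by the rule. Probe sets of 1 gene are no replicates of each other, since each array measures them in the same RNA.

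All 6 were male mice of the inbred strain BALB/c, 10 weeks old, which the series text gives as the age before the exposure. The 3 mice of the control group lived in normal air. The 3 of the hydrogen group breathed a mixture of 2% hydrogen gas and 98% air for 3 weeks. Each lung was hybridised to its own MG-430 PM array, and all values below are log2 values of the deposited RMA table unless another scale is named. The comparison asks which lung transcripts differ after the hydrogen exposure.

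Collagen chains are made in the endoplasmic reticulum, where prolyl 4-hydroxylases modify prolines that stabilise the triple helix and lysyl hydroxylases modify lysines that later form cross-links or carry sugars. The chaperone HSP47, encoded by Serpinh1, binds the folded helix until it leaves for the Golgi. After secretion, ADAMTS2 removes the amino-terminal and BMP1 the carboxy-terminal propeptide, with PCOLCE as an enhancer of BMP1, and fibrils can then form. In lung these products come mainly from fibroblasts and smooth muscle cells.

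In the hydrogen group P4ha2, the brighter Plod1 probe set, both Plod2 probe sets, both Serpinh1 probe sets and Pcolce were lower, by 0.34 to 0.73 on the log2 scale. Plod3, P4ha3 and the 3 Bmp1 probe sets did not pass the threshold, an adjusted p under 0.05 in limma with Benjamini-Hochberg adjustment over all probe sets. The dimmer Plod1 probe set rose. In all, 7 of the 13 probe sets fell and 1 rose, where 22.8% of all probe sets fell, 24.3% rose and 47.1% passed in either direction. The groups did not overlap for 9 of the 13, against 57.3% of all probe sets, and for 8 of these the hydrogen group was the lower one, against 26.4%. The median log2 fold change of the 13 was -0.34, against 0.02 over all probe sets. The split was 8 lower and none higher after median centring, 5 lower and none higher after a renewed quantile normalisation, and 6 lower and none higher after cyclic loess. Over all probe sets, median centring gave 32.4% lower and 14.2% higher, renewed quantile normalisation 16.8% lower and 18.7% higher, and cyclic loess 18.4% lower and 17% higher. With the brightest probe set of each gene 5 of the 8 genes fell, against 26.4% of all genes (26.1% rose). With the mean of its probe sets 5 fell too, against 24.2% (28.1% rose). At an unadjusted p under 0.05 in limma these settings had 1, 1 and 0 higher.

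The promoters of P4ha2, Plod1, Serpinh1 and Plod3 are shown because the first 3 genes had falling probe sets and the last did not pass, while P4ha2, Plod1 and Plod2 are known targets of the hypoxia-inducible factor HIF. Sequences are the 250 bases before the gene's start in RefSeq, build GRCm38.p6, written 5′ to 3′ on the gene's strand. Capitals mark ACGTG or GCGTG, the core letters that HIF binds, on either strand. Matches may overlap each other, and each is counted.
P4ha2, chr11:54100674-54100923, plus strand: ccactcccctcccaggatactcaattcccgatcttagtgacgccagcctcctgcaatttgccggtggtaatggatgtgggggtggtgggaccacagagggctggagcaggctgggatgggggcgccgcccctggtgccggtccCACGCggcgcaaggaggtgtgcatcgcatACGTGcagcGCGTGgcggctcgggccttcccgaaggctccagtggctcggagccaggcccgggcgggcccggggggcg
Plod1, chr4:147936777-147937026, minus strand: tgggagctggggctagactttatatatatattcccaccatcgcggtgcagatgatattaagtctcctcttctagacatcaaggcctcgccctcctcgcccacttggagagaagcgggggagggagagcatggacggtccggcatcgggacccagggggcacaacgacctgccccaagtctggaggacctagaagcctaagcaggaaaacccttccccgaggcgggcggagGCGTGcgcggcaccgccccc
Serpinh1, chr7:99353240-99353489, minus strand: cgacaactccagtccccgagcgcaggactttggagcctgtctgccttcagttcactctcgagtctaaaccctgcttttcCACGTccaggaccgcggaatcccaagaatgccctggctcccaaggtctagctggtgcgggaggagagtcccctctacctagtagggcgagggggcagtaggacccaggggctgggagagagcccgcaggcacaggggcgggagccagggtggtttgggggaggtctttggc
Plod3, chr5:136986769-136987018, plus strand: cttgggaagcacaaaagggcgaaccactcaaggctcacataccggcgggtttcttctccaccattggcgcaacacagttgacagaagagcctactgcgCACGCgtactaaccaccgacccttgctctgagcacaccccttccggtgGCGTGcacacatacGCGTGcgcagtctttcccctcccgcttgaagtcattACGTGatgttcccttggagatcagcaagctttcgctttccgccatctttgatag

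The RefSeq table had a promoter for 8 of the 10 genes, P4ha1 and Adamts2 among them, but none for Plod2 and Bmp1. Of these 8, 6 held ACGTG or GCGTG in these 250 bases, against 38.6% of the 32851 promoter entries of the table. P4ha2 held 1 ACGTG and 2 GCGTG, the nearest 69 bases before the start. Plod3 held 1 ACGTG and 3 GCGTG and Plod1 1 GCGTG, so genes with and without a fall held the letters. Serpinh1 held 1 ACGTG. P4ha3 held neither of them. The heat shock element GAANNTTC, searched because Serpinh1 is a known heat shock gene, was found in 0 of the 8 promoters and in 6.69% of all entries. A match here is a match of letters, not a bound site.

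The prolyl 4-hydroxylase subunit gene P4ha2 was 8.06, 8.18 and 8.26 in control mice 1, 2 and 3 and 7.41, 7.48 and 7.48 in hydrogen mice 1, 2 and 3. Every hydrogen value lay below every control value, and the hydrogen mice lay closer together. The means were 8.17 ± 0.10 and 7.46 ± 0.04 (SD, n = 3), a log2 fold change of -0.71 (SE 0.07, limma adjusted p = 0.000299), or 1.64-fold lower. After cyclic loess it was -0.51 (limma adjusted p = 0.00119). P4ha3, a subunit gene of the same enzyme family, was measured by a dim probe set, at 4.03, 3.84 and 3.88 in controls and 3.98, 3.97 and 3.94 in the hydrogen group. These values lie within the range of control probe sets for nonspecific signal, which had means of 2.67 to 6.70 in the control group. The second highest of these means was 4.42. Its groups overlapped, and the change was 0.05 (95% interval -0.10 to 0.19, limma adjusted p = 0.573). Its sign turned under median centring (-0.04), renewed quantile normalisation (-0.07) and cyclic loess (-0.07), and it did not pass in any of them.

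**Figure D1:**
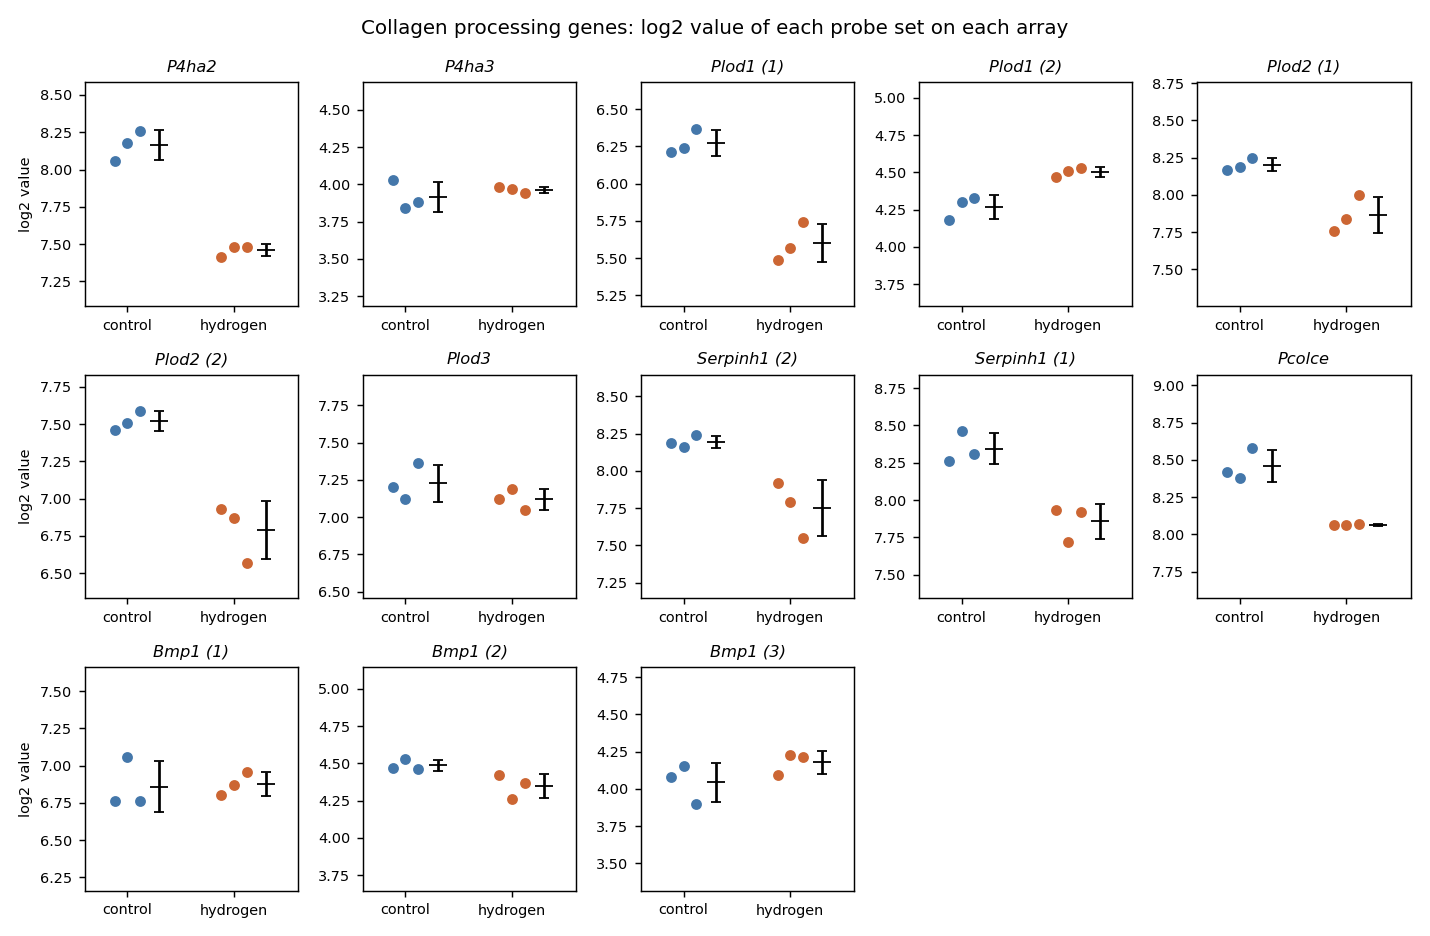
Log2 value (y axis) of each of the 13 probe sets on the 3 control arrays (blue) and the 3 hydrogen arrays (orange), with black bars for the mean and SD of each group and the same axis length in all panels. The numbers in brackets order the probe sets of a gene from brightest to dimmest. P4ha2, the brighter Plod1 probe set and the dimmer Plod2 probe set show the widest gaps, of -0.71, -0.67 and -0.73.

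The lysyl hydroxylase gene Plod1 was measured by probe sets that moved in opposite directions. The brighter one, 1416289_PM_at, was 6.21, 6.24 and 6.37 in controls and 5.49, 5.57 and 5.74 in the hydrogen group. Its groups were apart, with means of 6.27 ± 0.09 and 5.60 ± 0.13 (SD, n = 3) and a log2 fold change of -0.67 (SE 0.08, limma adjusted p = 0.00056). The dimmer one, 1445893_PM_at, was 4.18, 4.30 and 4.33 in controls and 4.47, 4.51 and 4.53 in the hydrogen group, below the median probe set on every array. Here the hydrogen mice were the higher ones, by 0.23 (SE 0.06, limma adjusted p = 0.0132). Of 23 control probe sets for nonspecific signal 9 rose too, by 0.17 to 1.07. These were the ones named GC17 to GC25, and none of those named GC3 to GC16 passed. The part of such signal in the rise of the dimmer Plod1 probe set was not tested. This rise did not pass after median centring (0.14, limma adjusted p = 0.0833), renewed quantile normalisation (0.11, 0.174) or cyclic loess (0.09, 0.257), while the fall of the brighter one passed in all of them.

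The difference between both Plod1 probe sets within each array was 2.03, 1.94 and 2.04 in controls and 1.02, 1.06 and 1.21 in the hydrogen group. It was smaller in all 3 hydrogen mice, by 0.91 on average (exact permutation test, two-sided, p = 0.1, the smallest that 3 against 3 arrays can give). Each probe set already had its groups apart, in opposite directions, so this outcome was fixed in advance and adds no support of its own. Which transcripts each of them detects was not analysed here. With the mean of both probe sets Plod1 was -0.22 (limma adjusted p = 0.0177).

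Plod2 encodes the lysyl hydroxylase that modifies the telopeptides of collagen, the site of fibrillar cross-links. Its dimmer probe set, 1416687_PM_at, was 7.46, 7.51 and 7.59 in controls and 6.93, 6.87 and 6.57 in the hydrogen group. The groups did not overlap and hydrogen mouse 3 was the lowest, for a log2 fold change of -0.73 (SE 0.09, limma adjusted p = 0.000805). The brighter probe set, 1416686_PM_at, was 8.17, 8.19 and 8.25 in controls and 7.76, 7.84 and 8 in the hydrogen group. The groups were apart here too, but hydrogen mouse 3 was the highest of its group. The change was -0.34 (SE 0.07, limma adjusted p = 0.00586), and it did not pass after cyclic loess (-0.14, 0.149) or renewed quantile normalisation (-0.11, 0.25).

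The within-array difference between both Plod2 probe sets rose from 0.68 ± 0.03 to 1.08 ± 0.31 (SD, n = 3), higher in 3 of 3 hydrogen mice. In this pair hydrogen mouse 3 had 1.43 and mice 1 and 2 had 0.83 and 0.97. Plod3, whose product also adds sugars to hydroxylysine, was 7.2, 7.12 and 7.36 in controls and 7.12, 7.19 and 7.05 in the hydrogen group. The groups overlapped, with a change of -0.11 (95% interval -0.28 to 0.06, limma adjusted p = 0.267). Its sign turned after cyclic loess (0.09) and renewed quantile normalisation (0.12), where it did not pass either.

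Differences within arrays were compared for 11 pairs, 6 of probe sets of 1 gene and 5 of genes of 1 family or step by their brightest probe sets, all but that of Plod1 added after the data had been seen. The groups did not overlap for 7 of the 11, each with p = 0.1 in the exact permutation test and 0.157 after Benjamini-Hochberg adjustment over the pairs. For single probe sets that share was 57.3% over the whole array, and it was not computed for other pairs. Plod1 minus Plod3 was one of the 7, lower by 0.57 in the hydrogen group, and so was Pcolce minus Bmp1, lower by 0.41. Plod2 minus Plod3 overlapped between the groups and was lower by 0.23 (exact permutation p = 0.2, adjusted 0.244). No pair passed after adjustment, which a design of this size cannot reach.

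**Figure D2:**
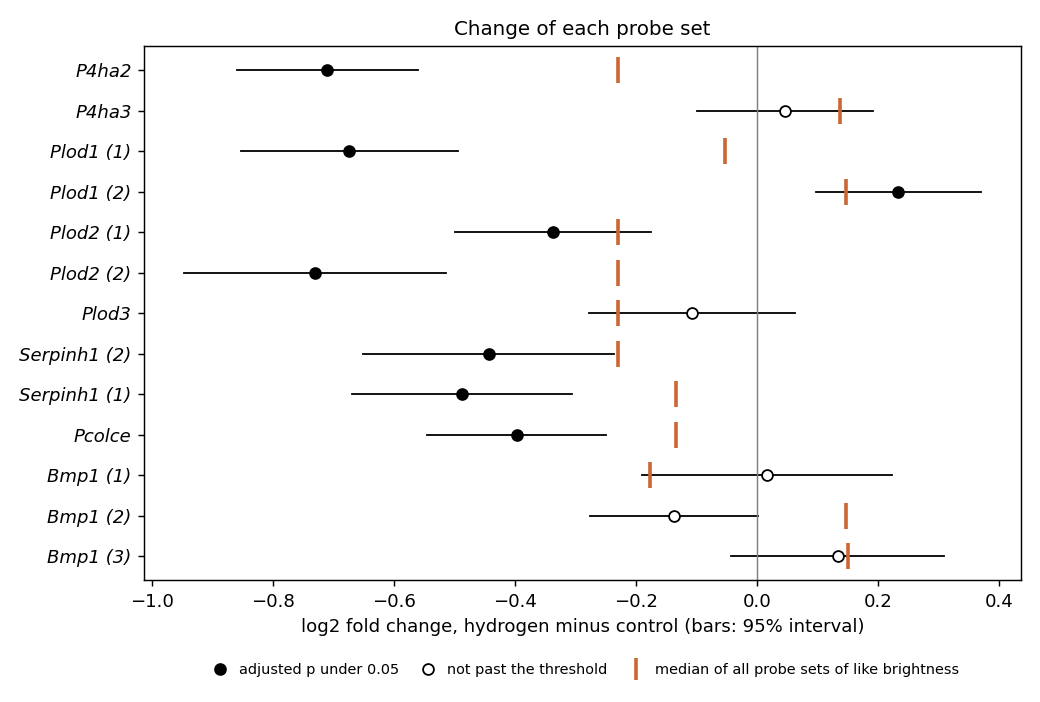
Log2 fold change, hydrogen minus control (x axis), of each of the 13 probe sets with its 95% interval from limma. Filled points passed an adjusted p under 0.05, and orange ticks give the median change of all probe sets in the same brightness bin (1 of 10). The 7 falling probe sets lie at -0.34 to -0.73. Their intervals lie wholly below their ticks, as for P4ha2 (-0.86 to -0.56) and the brighter Plod1 probe set (-0.85 to -0.49). The exception is the brighter Plod2 probe set (-0.50 to -0.17), and the dimmer Serpinh1 probe set clears its tick only just. The interval of Bmp1 1427457_PM_a_at, which did not pass, also lies below its tick.

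Serpinh1, the collagen chaperone gene, fell in both of its probe sets. The probe set 1456733_PM_x_at was 8.26, 8.46 and 8.31 in controls and 7.93, 7.72 and 7.92 in the hydrogen group. Its groups were apart by more than their spread, with a log2 fold change of -0.49 (SE 0.08, limma adjusted p = 0.00198). The probe set 1450843_PM_a_at was 8.19, 8.16 and 8.24 in controls and 7.92, 7.79 and 7.55 in the hydrogen group. The hydrogen mice were lower and more spread out here, with SDs of 0.04 and 0.19 (n = 3) and a change of -0.44 (SE 0.09, limma adjusted p = 0.00514). After cyclic loess the first was -0.29 (limma adjusted p = 0.0218) and the second -0.25 (0.0696). After renewed quantile normalisation they were -0.27 (0.0309) and -0.22 (0.104). The within-array difference between both overlapped between the groups (exact permutation p = 0.8).

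Among the genes of propeptide removal, Pcolce was 8.42, 8.38 and 8.58 in controls and 8.06, 8.06 and 8.07 in the hydrogen group. The hydrogen mice lay almost on 1 value, below all controls. The change was -0.40 (SE 0.06, limma adjusted p = 0.00196), which was -0.21 after cyclic loess (0.0382) and did not pass after renewed quantile normalisation (-0.18, 0.0619). The brightest Bmp1 probe set, for the proteinase that PCOLCE assists, was 6.76, 7.06 and 6.76 in controls and 6.80, 6.87 and 6.96 in the hydrogen group. These values overlapped, with a change of 0.02 (95% interval -0.19 to 0.22, limma adjusted p = 0.894) that was -0.07 after median centring and 0.20 after cyclic loess (limma adjusted p = 0.12).

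The dimmer Bmp1 probe sets lay below the median probe set on every array. The probe set 1427457_PM_a_at was 4.47, 4.53 and 4.46 in controls and 4.42, 4.26 and 4.37 in the hydrogen group, without overlap, and did not pass (-0.14, limma adjusted p = 0.0954). It passed after median centring (-0.23, limma adjusted p = 0.0168), renewed quantile normalisation (-0.26, 0.0137) and cyclic loess (-0.28, 0.00995). The probe set 1427458_PM_at overlapped between the groups and had 0.13 (limma adjusted p = 0.185). No Bmp1 change passed on the deposited values, and the Bmp1 probe sets had different signs.

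The changes of all probe sets followed brightness, and each member was therefore set beside probe sets of like brightness, in 10 bins of equal size by mean value, bin 10 being the brightest. In bin 9, which holds P4ha2, both Plod2 probe sets, Plod3 and Serpinh1 1450843_PM_a_at, 53.5% of all probe sets fell and the median change was -0.23. Of these 5 members 4 fell. P4ha2 and Plod2 1416687_PM_at lay 0.48 and 0.50 below that median and also below the lower quartile of -0.40. Plod2 1416686_PM_at lay 0.11 below the median and above that quartile. In bin 10, with a median of -0.13 and a lower quartile of -0.29, Serpinh1 1456733_PM_x_at lay 0.35 and Pcolce 0.26 below the median. The brighter Plod1 probe set stood in bin 7, where 31.7% fell and the median was -0.05, and lay 0.62 below it. Its dimmer probe set stood in bin 5, where 42.1% rose and the median was 0.15, and lay 0.09 above it. Plod3 and the brightest Bmp1 probe set lay 0.12 and 0.19 above the medians of their bins.

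**Figure D3:**
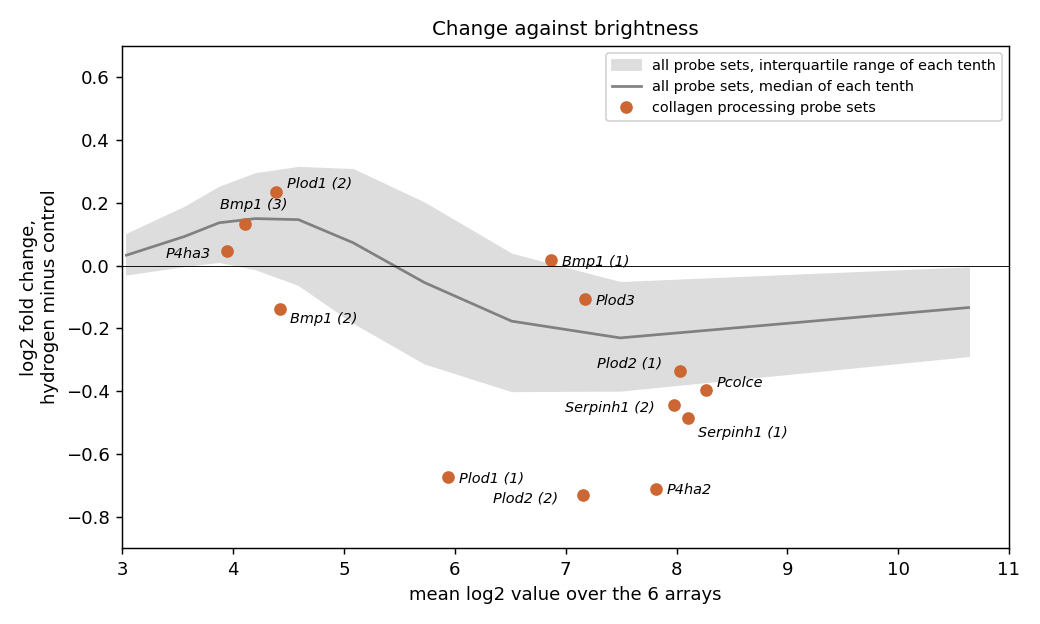
Log2 fold change, hydrogen minus control (y axis), against the mean log2 value over the 6 arrays (x axis). The grey line and band are the median and interquartile range of all probe sets in each of 10 brightness bins, and orange points are the 13 collagen processing probe sets. The brighter Plod1 probe set, the dimmer Plod2 probe set and P4ha2 lie farthest below the band, at -0.67, -0.73 and -0.71.

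The falls of P4ha2, Plod1 1416289_PM_at, Plod2 1416687_PM_at and Serpinh1 1456733_PM_x_at passed under median centring, renewed quantile normalisation and cyclic loess. For P4ha2 the values ran from -0.80 with median centring to -0.48 with renewed quantile normalisation. For the Plod1 probe set they ran from -0.76 to -0.58, and for the Plod2 probe set from -0.82 to -0.51. Those of Serpinh1 ran from -0.58 to -0.27. Leaving out any 1 of the 6 arrays changed the call of none of the 13 probe sets.

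**Figure D4:**
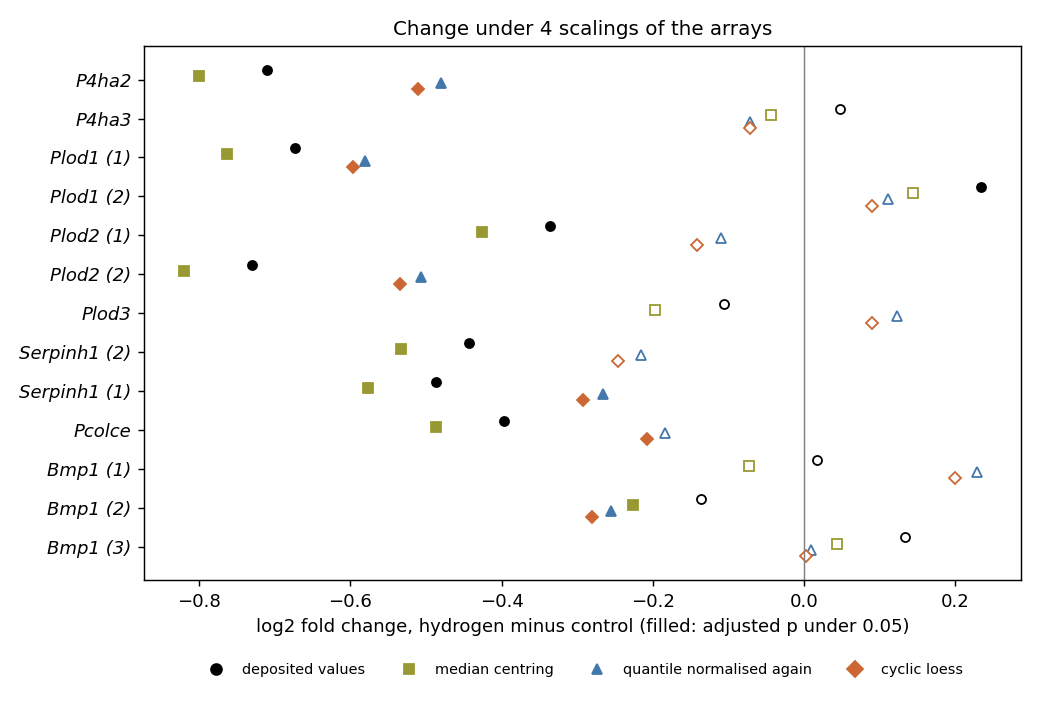
Log2 fold change, hydrogen minus control (x axis), of each of the 13 probe sets on the deposited values and after 3 other scalings of the arrays, with filled symbols for an adjusted p under 0.05 in limma. P4ha2, the brighter Plod1, the dimmer Plod2 and the brighter Serpinh1 probe sets are filled under all 4 scalings, while the brighter Plod2 probe set is not after cyclic loess (-0.14).

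Other genes that modify collagen or help it leave the endoplasmic reticulum were measured by 25 probe sets for 16 of 18 listed genes. Of these 13 fell and 3 rose, with a median log2 fold change of -0.19, where 22.8% of all probe sets fell and 24.3% rose. This split depended on the scaling: after cyclic loess 5 fell and 8 rose, and after renewed quantile normalisation 5 fell and 7 rose. Over all probe sets 18.4% fell and 17% rose after cyclic loess, and 16.8% and 18.7% after renewed quantile normalisation. The prolyl 3-hydroxylase family gene P3h3 had means of 6.32 ± 0.08 without and 5.71 ± 0.12 with hydrogen (SD, n = 3), a log2 fold change of -0.61 (limma adjusted p = 0.000696). Crtap, whose product forms a complex with prolyl 3-hydroxylase, had -0.36 (limma adjusted p = 0.00327). Ppib, the cyclophilin B gene, had 0.02 and did not pass (limma adjusted p = 0.795). P4hb, for the shared beta subunit of the prolyl 4-hydroxylases, had 0.07 and did not pass either (limma adjusted p = 0.298).

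Tmem38b, an ion channel gene of the endoplasmic reticulum, fell in 3 of 4 probe sets, by 0.34 to 0.47. Mia3, which encodes the cargo receptor TANGO1 for procollagen export, fell in 1459984_PM_at (-1.07, limma adjusted p = 0.000426) and 1455066_PM_s_at (-0.34) and rose in 1459070_PM_at (0.23, limma adjusted p = 0.0149). The related gene Mia2 rose by 0.35 in a dim probe set, and P3h1 fell in its brighter probe set (-0.31) and rose in its dimmer one (0.29). Opposite calls within a gene were therefore seen beyond Plod1.

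Genes that act on procollagen or fibrils outside the cell, apart from the set itself, were measured by 17 probe sets for 11 of 12 listed genes. Of these probe sets 2 fell and 5 rose, with a median of 0.06, where 22.8% of all probe sets fell and 24.3% rose. The lower ones were Furin (-0.23), the proprotein convertase gene, and Adamts3 (-0.34), a procollagen proteinase gene measured by a dim probe set. The lysyl oxidase family probe sets that passed were 1 of Loxl1 (0.55, limma adjusted p = 0.00316), both of Loxl4 (0.36 and 0.28) and 1437903_PM_at of Lox (0.18, limma adjusted p = 0.034), all dim and all higher. The brighter Loxl1 probe set had 0.46 and did not pass (limma adjusted p = 0.0859). In its brightest probe set Lox, the cross-linking oxidase gene, was 7.55, 7.60 and 8.43 in controls and 7.44, 7.47 and 6.76 in the hydrogen group. The hydrogen mice were all lower but the spread was wide, and it did not pass (-0.64, SE 0.26, limma adjusted p = 0.0715). The tolloid-like proteinase gene Tll2 also rose in a dim probe set (0.21).

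The fibrillar collagen chains, the substrates of these enzymes, showed no common direction. Of 15 probe sets for 9 genes, 2 fell and 5 rose, with a median of -0.07, where 22.8% of all probe sets fell and 24.3% rose. After median centring 7 fell and 4 rose, where 32.4% of all probe sets fell and 14.2% rose. Col1a1 was 5.62, 5.75 and 5.61 in controls and 5.44, 5.18 and 5.34 in the hydrogen group, without overlap (-0.34, SE 0.08, limma adjusted p = 0.00843). Col3a1, the main chain of reticular fibres, had -0.17 (limma adjusted p = 0.154) in its brighter probe set and -0.24 (0.23) in its dimmer one. The only Col1a2 probe set named by the annotation was dim and had -0.07 (limma adjusted p = 0.326). Col5a2 fell by 0.34 in its brighter probe set. Col5a1 was higher in its dimmer probe sets (0.57 and 0.23), while its brightest had -0.19 without overlap of the groups and did not pass (limma adjusted p = 0.0597). Dim probe sets of Col5a3 (0.42), Col11a2 (0.37) and Col2a1 (0.25) were higher, and the other Col5a3 probe set had 0.0033 (limma adjusted p = 0.966).

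**Figure D5:**
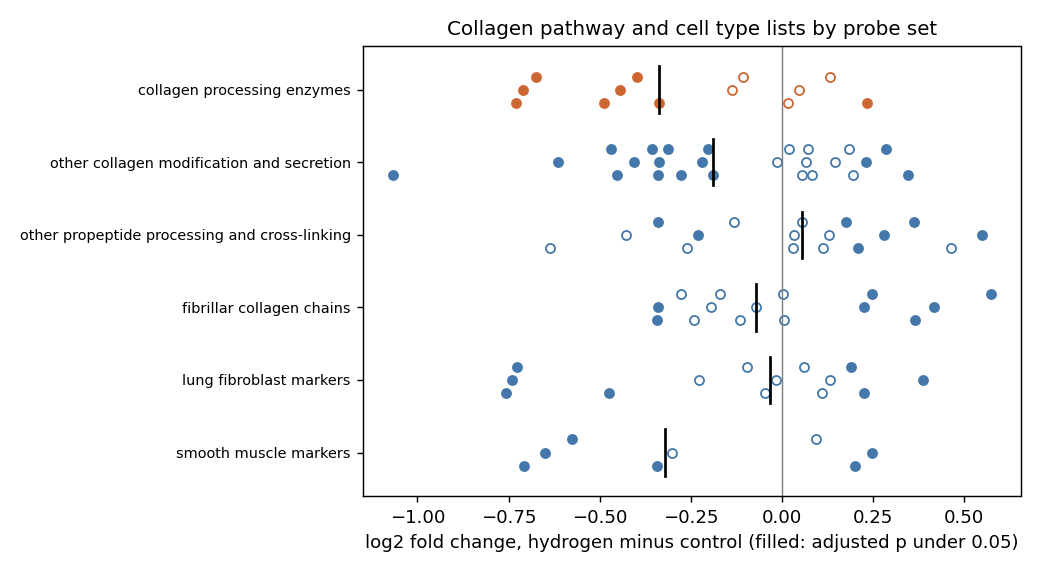
Log2 fold change, hydrogen minus control (x axis), of each probe set of the collagen processing set (orange) and of 5 lists of related genes or cell type markers (blue). Filled points passed an adjusted p under 0.05 in limma and black bars are medians, which run from -0.34 for the collagen processing set to 0.06 for the other propeptide and cross-linking genes. The vertical scatter within a row only separates the points.

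In bulk lung, fewer cells of a type and less RNA per cell cannot be told apart. Of 14 probe sets for 10 lung fibroblast markers, 4 fell (28.6%) and 3 rose, where 22.8% of all probe sets fell and 24.3% rose. The lower ones were Dcn (-0.76), Tcf21 (-0.74), Lum (-0.73) and Dpt (-0.47), and the higher ones were Npnt in 2 of its probe sets (0.39 and 0.19) and Pi16 (0.23, dim). The mean level of the list was 8.15 to 8.19 on the control arrays and 7.96 to 8.09 on the hydrogen arrays. Of 8 smooth muscle probe sets 4 fell and 2 rose, against the same 22.8% and 24.3% of all probe sets. The falls were of Myh11 (-0.71), Cnn1 (-0.65), Actg2 (-0.58) and Des (-0.34), and the rises of Myh11 (0.25) and Des (0.20). This split depended on the scaling. After cyclic loess 2 fell and 1 rose, against 18.4% and 17% of all probe sets. After renewed quantile normalisation 1 fell and 1 rose, against 16.8% and 18.7%. Mean levels of the list were 6.36 to 6.41 on the control arrays and 5.94 to 6.23 on the hydrogen arrays. The part of either cell type in the changes of the collagen processing genes was not tested. The lung markers Sftpc and Ager were at 13.14 to 13.16 and 12.66 to 12.69 in their brightest probe sets in controls, among the brightest probe sets of the arrays. On the hydrogen arrays these were at 13.16 to 13.19 and 12.49 to 12.55. The Ager probe set passed as lower (-0.15, limma adjusted p = 0.0437), and that of Sftpc did not pass (0.02, 0.765).

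Cardiac muscle markers moved with the groups too, with 14 of 15 probe sets lower, against 22.8% of all probe sets, and a median of -1.89. None of the 15 was higher in limma, also at an unadjusted p under 0.05. The largest falls were those of Nppa (-4.33), Tnni3 (-2.22), Myl7 (-2.17) and Ttn (-2.09). Their mean level was 8.01 to 8.25 in controls and 7.01, 5.45 and 6.60 in hydrogen mice 1, 2 and 3. The mean of the 13 collagen processing probe sets was 6.58 to 6.64 in controls and 6.34, 6.34 and 6.34 in the same hydrogen mice. The part of cardiac muscle RNA in the changes was not tested. The mean level of 4 adipocyte probe sets was 7.58 to 7.80 in controls and 7.58, 4.20 and 5.82 in hydrogen mice 1, 2 and 3. Of these 4 only that of Adipoq fell past the threshold (-2.43), where 22.8% of all probe sets fell. Without hydrogen mouse 2, the one with the lowest cardiac level, P4ha2 was -0.72, Plod1 1416289_PM_at -0.66 and Plod2 1416687_PM_at -0.77. The cardiac levels of hydrogen mice 1 and 3 were still below every control, so this does not test the part of cardiac muscle RNA. Of the 104 control probe sets on the array 20 were higher and 34 lower in limma. Of 18 hybridisation spike-in probe sets 13 fell, by up to 0.97, and of 24 poly-A spike-in probe sets 14 fell, by up to 0.70. The 3 probe sets of 18S rRNA (-0.95 to -0.48) and the 3 of Gapdh (-0.39 to -0.23) fell as well, while the 3 of beta-actin did not pass (-0.01 to 0.08). The part of these shifts in the changes of the collagen processing genes was not tested. The arrays correlated at r = 0.996 to 0.997 within groups and 0.98 to 0.988 between groups over all probe sets. The labels give no batch, so a difference in processing between the groups cannot be told apart from the exposure.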

How the data were processed

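Lung RNA of 6 mice, 3 per group, was measured on Affymetrix MG-430 PM arrays. The authors deposited log2 values per probe set and array. RMA and Affymetrix Expression Console are the tools named per the submitters' processing notes. Their versions and which arrays were normalised together were not given there. RMA makes the distributions of arrays alike when they are run together, and the medians here were 4.75 to 4.76 in controls and 4.84 to 4.85 in the hydrogen group. The SD over probe sets was 1.90 to 1.92 on the control arrays and 1.80 to 1.81 on the hydrogen arrays, so the hydrogen distributions were narrower. The part of this difference in the changes of the collagen processing genes was not tested. Per the labels, replicate numbers are within groups. No text says that mice were paired. The number of arrays limits the precision.

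The hydrogen group was set against the control group in limma 3.58.1 (R 4.3.3), by lmFit and then eBayes with no trend, on all 45037 probe sets other than 104 control probe sets, with Benjamini-Hochberg adjustment over all of them and a threshold of 0.05. No filter was applied. The script was tested on simulated data. Within-array differences between probe sets were compared with the exact two-sided permutation test in scipy 1.17.1. Dim means a mean at or below the median probe set. Figures were drawn with matplotlib 3.10.9.

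In the platform annotation 28898 probe sets have 1 gene, 551 have several and 15588 have none. By Entrez identifier, 28689 of the single-gene probe sets matched RefSeq names of GRCm38.p6. The genes and lists were chosen with earlier results of these data known. All probe sets of the set were named. From each list of the collagen pathway, of HIF targets and of fibroblast, smooth muscle, cardiac and adipocyte markers, the probe sets past the threshold with the 4 largest changes in each direction were named, and also P4hb, Crtap, Ppib, Lox, Col1a1, Col1a2 and Col3a1. Sftpc, Ager and the further Tmem38b, Mia3, Loxl1, Col5a1, Col5a3, Slc2a1, Pdk1 and Ero1a probe sets were named after their values had been seen. The 16 other settings are described in the closing section.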

Additional observations from a re-analysis of the deposited data

How the results depend on the processing

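Of 193 values of the 13 probe sets under 16 other settings, 182 kept their side of the threshold, 8 calls were lost, 3 were gained and 0 called values changed sign. All changed calls came from median centring, renewed quantile normalisation or cyclic loess, and all are given in the report; the other scalings are relative to a median change of all probe sets of -0.07, 0.01 and -0.001. The median of the set was -0.43 with median centring, -0.18 with renewed quantile normalisation, -0.21 with cyclic loess, -0.44 without dim probe sets, -0.24 without probe sets named _s or _x and -0.37 with the brightest probe set per gene. Without 1 array it was -0.35 to -0.28. The count of higher probe sets in the set was 0 in limma with median centring, renewed quantile normalisation, cyclic loess, without dim probe sets, and with the brightest or the mean probe set per gene, where 1, 1, 0, 0, 0 and 0 were higher at an unadjusted p under 0.05. Of all probe sets, 6377 rose with median centring and 3663 without dim probe sets. Over 17097 genes, 4454 rose and 4516 fell with the brightest probe set and 4803 rose and 4135 fell with the mean of all probe sets. With array weights, a trend and robust fitting, or a replicate block, the set had 1 higher and 7 lower. Same-numbered mice shared only a number: their deviations correlated at 0.08, 0.03 and -0.11, and with the replicate block 9986 probe sets rose and 9791 fell. The difference between the Plod1 probe sets was -0.91 with median centring, -0.69 with renewed quantile normalisation or cyclic loess, and -0.96 to -0.87 without 1 array. Of 280 counts of related lists under other settings, 84 moved by over 1.5 times.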

Other observations

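Of 21 probe sets for 13 genes known as HIF targets outside collagen synthesis, 12 fell and none rose in limma (1 at an unadjusted p under 0.05), and their median was -0.24 on the log2 scale. The share that fell was 22.8% over the whole array. Only 3 of the 21 were dim, and in the brightness bins 9 and 10 the share of all probe sets that fell was 53.5% and 40.9%. No probe set of Ldha, Ankrd37, Egln3, Car9 or Ndrg1 passed, with Car9 at 0.18 and Ndrg1 at 0.08. After cyclic loess 7 fell and 1 rose, with a median of -0.11, where 18.4% of all probe sets fell and 17% rose. The adrenomedullin gene Adm was 6.46, 6.08 and 6.95 in controls and 6.02, 5.14 and 4.27 in the hydrogen group (-1.35, SE 0.39, limma adjusted p = 0.0217). The hydrogen mice were lower and wide apart. The glucose transporter gene Slc2a1 was 7.06 ± 0.20 and 5.87 ± 0.07 (SD, n = 3) in its brighter probe set (-1.19, limma adjusted p = 0.000241), while its dimmer one had -0.19 (limma adjusted p = 0.0893). Pdk1, which restrains pyruvate entry into mitochondria, had -0.82 in 1423747_PM_a_at and 0.08 in 1423748_PM_at, and the oxidoreductase gene Ero1a had -0.53. Of the collagen genes also known as HIF targets, P4ha2 had -0.71. Plod1 had -0.67 in its brighter and 0.23 in its dimmer probe set, and Plod2 had -0.34 and -0.73.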
